A study of Mus musculus with 20 samples.

Results

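The cells described here are the 168 of 21016 spinal cord cells that the study's own clustering placed in cluster 12, which the study called pericytes. They were taken by that cluster number from the deposited cell annotation, in all 6 single-cell libraries. Each library came from the T9 spinal cord of female C57BL/6J mice aged 8 to 10 weeks, with several mice of a group pooled into 1 suspension before sequencing. The mice ate chow with PLX5622, an inhibitor of the receptor CSF1R that depletes microglia, at 1200 ppm, or Vehicle chow without it, from 2 weeks before surgery to the end. Surgery was a contusion injury of the cord or a sham laminectomy, and the injured cords were taken at 7 or 28 days post injury (dpi). The sham libraries are labelled as holding both times, so the 7 and the 28 dpi comparisons within a diet share the same sham library. All 6 groups went through the same dissociation, myelin removal and dead cell removal, in which cells of different types may survive to different degrees. The 14 bulk RNA samples of the series were not analysed here.

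Pericytes and vascular smooth muscle cells are the mural cells of blood vessels. Pericytes lie within the basement membrane of capillaries, hold on to endothelial cells through PDGF-B and its receptor Pdgfrb, and carry the potassium channel subunits Kcnj8 and Abcc9, while smooth muscle cells ring the arterioles with actin and smooth muscle myosin. Fibroblasts of the cord lie in the meninges and around larger vessels and make collagens and the small proteoglycans decorin (Dcn) and lumican (Lum), and both cell families are known as sources of the scar that forms after cord injury.

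Values are counts of unique molecular identifiers (UMIs, 1 per captured RNA molecule) summed over the cells of a library and given as counts per 1000000 UMIs (CPM). Intervals in parentheses are 95% intervals that cover counting error only. Each condition is 1 library, so no difference between conditions has a replicate check, no test was run, and "higher" or "lower" describes these libraries. The cluster itself was made from the expression of these same cells, so its marker genes describe it and do not test it.

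The libraries held 492 to 9846 cells, with a median of 2268.5 to 5127 UMIs per cell. Any pair of libraries shared 0 to 21 cell barcodes. The cluster's cells were shallower than their libraries in the injured vehicle samples, with a median of 1289 UMIs at 7 dpi and 1078 at 28 dpi, and near them in sham, with 3879.

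By marker genes the cluster was a mixture of fibroblasts and mural cells. Of the 14 clusters of the series, it had the highest level of 11 of 12 fibroblast genes, of 10 of 11 pericyte genes and of 7 of 8 smooth muscle genes. Pdgfra and Cspg4, which fibroblasts and pericytes share with oligodendrocyte precursors, were highest in the oligodendrocyte lineage cluster, and the smooth muscle gene Cnn1 in the ependymal cluster. It was also highest for 5 of 12 leptomeningeal genes, and for none of the genes in the endothelial, myeloid, astrocyte, oligodendrocyte lineage, ependymal, T cell, B cell, erythroid, neutrophil, Schwann cell, neuron, bone and skeletal muscle lists. All 5 markers given for the cluster, Lum, Dcn, Col3a1, Pi16 and Dpt, are fibroblast genes.

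The genes that set the whole cluster apart from all other cells were those of fibroblasts. Dpt, which encodes the collagen-binding protein dermatopontin, had 466 CPM in the cluster against 0.0867 in all other cells. Lum had 795 CPM against 0.211. Pi16, a peptidase inhibitor that marks fibroblasts around vessels in many tissues, had 3245 CPM against 3.88. Dcn stood 556 times and Apod, the lipid carrier apolipoprotein D, 483 times above all other cells. The elastic fibre genes Fbn1 and Fbln2, the proteoglycan Aspn, the chemokine Ccl11 and Cd248, a surface protein of stromal cells, were also among the 20 leading genes, and none of the 20 was on the pericyte or smooth muscle list.

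Counted cell by cell, however, more cells lay on the mural than on the fibroblast side. A cell was put on the fibroblast side when it held more UMIs of the 12 fibroblast genes than of the 19 pericyte and smooth muscle genes together, and on the mural side when it held fewer. That gave 92 mural cells (54.8%, 46.9 to 62.4), 74 fibroblast cells (44.0%, 36.4 to 51.9) and 2 cells with neither. The 92 include 10 cells that carried macrophage genes as well and were left without a cell type name, as described below. The fibroblast cells were the larger libraries, with a median of 2359.5 UMIs against 1066.5 for the mural cells, and they supplied 71.3% of all UMIs of the cluster. Summed levels of the cluster therefore read mainly as fibroblast: the fibroblast list stood 1.82 log2 units above the mural lists (1.78 to 1.87), and 0.11 units when each cell counted alike.

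Few cells lay between the sides. Only 3 of the 168 cells took over 25% of their UMIs of both lists from the lesser list, and 13 took over 10%. Of the mural cells, 56 held no fibroblast UMI at all and 89 held at most 2. The fibroblast cells held more of the other side's RNA, since 18 had no mural UMI and the highest had 230. A division by such a score is a range and not a cell type, 4 cells had lists within 3 UMIs of each other, and 18 cells had under 10 UMIs of their leading list.

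**Figure D1:**
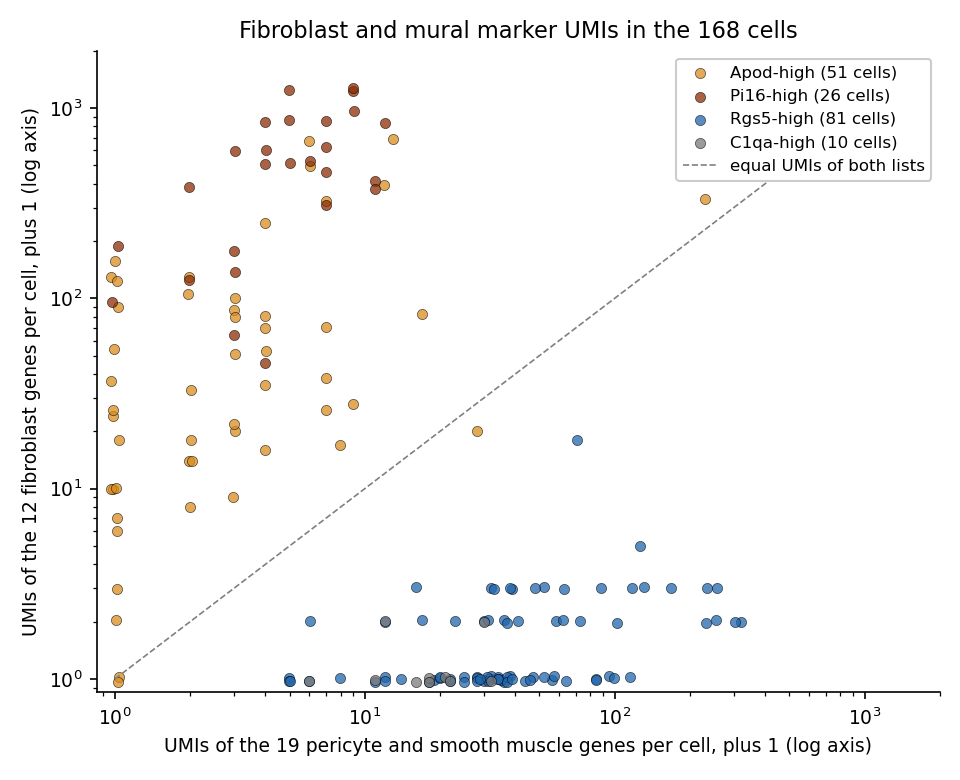
UMIs of the 12 fibroblast genes (vertical, log axis) against UMIs of the 19 pericyte and smooth muscle genes (horizontal, log axis) in each of the 168 cells, with 1 added and a small shift to part equal points. Points are coloured by sub-cluster, and 92 cells lie below and 74 above the dashed line of equal UMIs, with few near it.

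The most abundant marker genes of the cluster came from different cells. Dcn, the gene by which the study displayed its pericytes, is a fibroblast gene. Of 8085 Apod UMIs, 7983 were on the fibroblast side, as were 7888 of 7912 Dcn UMIs. Of 2762 Vtn UMIs, which encode the adhesion protein vitronectin, 2463 were on the mural side. So Apod and Dcn marked the fibroblasts and Vtn the mural cells.

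The mural cells were mostly of the pericyte kind. They held 4409 UMIs of the pericyte genes against 580 of the smooth muscle genes. Rgs5, a regulator of G-protein signalling and a classical pericyte marker, had 2705 CPM on the mural side and 0 UMIs on the fibroblast side, which makes it at least 359 times higher. Abcc9 was 280 times, Ndufa4l2 187 times and Kcnj8 91 times higher than on the fibroblast side, and Higd1b at least 199 times. Smooth muscle RNA was confined to few cells: 9 mural cells had 3 or more such UMIs, 4 had more of them than of pericyte UMIs, and the 2 richest cells, with 275 and 96, held 64.0% of the total.

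The fibroblast side in turn was led by matrix and growth factor binding genes. Igfbp5, a binding protein of insulin-like growth factors, was 404 times higher than on the mural side, with 15662 CPM. Col1a1, the main collagen of fibroblasts, was 215 times and Serpinf1 166 times higher, Pi16 at least 235 times and the microfibril gene Mfap5 at least 141 times. Myeloid RNA lay mostly on the mural side, at 6475 CPM of the 12 myeloid genes against 385 on the fibroblast side, and its part in the results was not tested beyond leaving out cells that hold it. Much of it was in 10 mural cells, the C1qa-high sub-cluster described below. They held 193 C1qa, 146 C1qb and 132 Ctss UMIs, against 41, 37 and 30 in the rest of the cluster.

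When the 168 cells were clustered again by themselves, they fell into 4 sub-clusters, named here by a leading gene. The Rgs5-high sub-cluster of 81 cells was wholly mural and pericyte-like. The Pi16-high sub-cluster of 26 cells was wholly on the fibroblast side and was deep, with a median of 9945 UMIs. The Apod-high sub-cluster of 51 cells had 48 on the fibroblast side, and a median of 1401 UMIs. The last, the C1qa-high sub-cluster of 10 mural cells, carried macrophage genes as well, with C1qa at 7158 CPM against 77.2 in the rest of the cluster and Apoe at 97359 CPM. The doublet caller marked 6 of those 10 cells, and this sub-cluster was left without a cell type name.

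The Pi16-high and Apod-high fibroblasts differed in kind. The Pi16-high cells led in Pi16 (6765 CPM against 29.1), in Col14a1, which encodes a collagen that coats fibrils (1074 against 7.27), in the Wnt antagonist Sfrp4 (1404 against 14.5), in Ly6a, the surface antigen Sca-1 (4215 against 138), and in Igfbp5 (22803 against 1345). The Apod-high cells led in Apod (57238 CPM against 726), in Cp, the ferroxidase ceruloplasmin (1497 against 3.74), in Ctla2a (1069 against 3.74), and in Col15a1, a collagen that bridges fibrils to basement membranes (1127 against 18.7). Vtn was also higher there (2319 against 26.2), but much of that came from 1 mixed cell. This sham vehicle cell held 230 UMIs of the mural genes beside 333 of the fibroblast genes. The whole fibroblast side of that library had 239 Vtn UMIs. Both kinds had high Dcn, at 15634 CPM in the Pi16-high and 27027 in the Apod-high cells. Since the sub-clusters were made from these genes, the values describe them only.

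**Figure D2:**
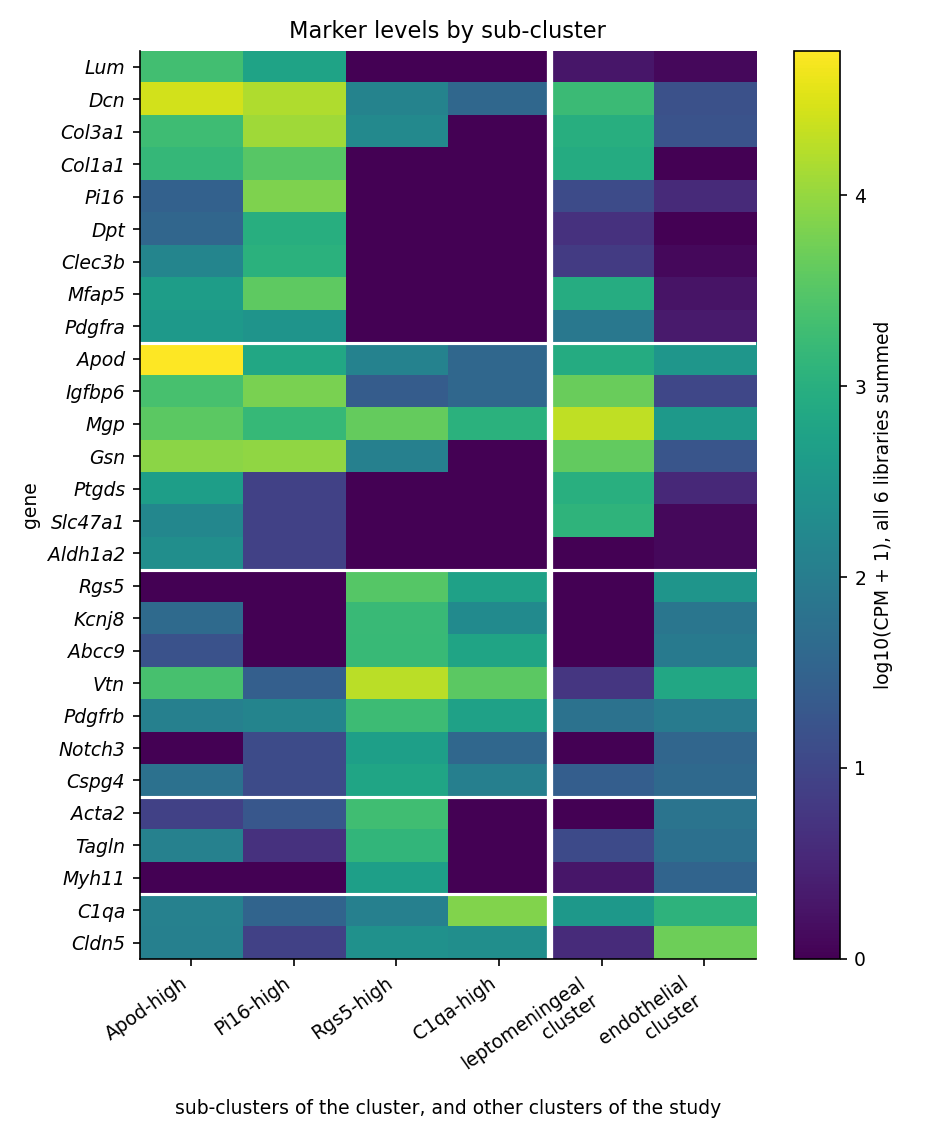
Levels of 28 markers, as log10 of CPM plus 1 over all 6 libraries, in the 4 sub-clusters and, to the right of the thick line, in the leptomeningeal and endothelial clusters of the study. Pi16, at 6765 CPM in the Pi16-high cells, was at 29.1 in the Apod-high cells, and Rgs5 was at 0 UMIs in both.

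The cluster next in kind is number 13, which the study called leptomeningeal cells. It had 134 cells, 82 of them with 10 or more fibroblast UMIs. The fibroblast side of cluster 12 differed from it in Lum (1114 CPM against 0.953), Aspn (2014 against 2.86), Pi16 (4554 against 11.4) and Dpt (651 against 3.81). In the other direction, cluster 13 led in Rspo3, an activator of Wnt signalling (795 CPM against 2.51), and in the transporter gene Slc5a6 (609 against 2.51). Mural RNA was also found outside cluster 12. In the endothelial cluster 127 of 1075 cells held 10 or more UMIs of the mural lists, and in 37 of those they outnumbered the endothelial genes, 26 of the 37 being in the 28 dpi vehicle library.

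Fewer of the cells of an injured library belonged to the cluster than of a sham library. In the sham vehicle library the cluster was 41 of 1795 cells, 2.28% (1.64 to 3.09). At 7 dpi it was 20 of 7439 cells, 0.269% (0.164 to 0.415), and at 28 dpi 66 of 9846 cells, 0.670% (0.519 to 0.852). With PLX5622 the shares were 3.86% in sham (2.34 to 5.97, 19 cells), 1.98% at 7 dpi (0.955 to 3.62, 10 cells) and 1.28% at 28 dpi (0.661 to 2.22, 12 cells). The shares were thus lower in the injured libraries on both diets. Microglia and macrophages make up much of the injured vehicle libraries, and leaving out those 2 clusters the vehicle shares were 4.38, 0.884 and 2.58% and the PLX5622 shares 4.19, 2.92 and 1.84%, so that the 28 dpi vehicle value came nearer to sham while the 7 dpi value stayed lowest.

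The mix of the cluster was mostly fibroblast in sham vehicle and mostly mural in the injured vehicle libraries. In sham vehicle 29 of 41 cells were on the fibroblast side, 70.7% (54.5 to 83.9). At 7 dpi 8 of 20 were, 40.0% (19.1 to 63.9), and at 28 dpi 25 of 66, 37.9% (26.2 to 50.7). In the PLX5622 libraries the fibroblast side was the smaller already in sham, with 6 of 19 cells, and had 3 of 10 at 7 dpi and 3 of 12 at 28 dpi. Of the 6, the 3 Apod-high cells held only 6, 9 and 15 UMIs of the fibroblast genes, against 524 to 857 in the others. With 1 more cell on neither side, the Apod-high cells of sham PLX5622 held 22116 UMIs. The whole cluster of that library had only 34 Apod and 0 Lum UMIs. These cells are thus Apod-high by sub-cluster and not by their own Apod level. The interval of the sham PLX5622 share, 12.6 to 56.6%, overlapped that of sham vehicle only narrowly.

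The Pi16-high fibroblasts were 39.0% of the cluster in sham vehicle, 5.00% at 7 dpi and 6.06% at 28 dpi, the Apod-high cells 31.7, 35 and 33.3%, and the Rgs5-high cells 24.4, 55 and 50%. The Pi16-high sub-cluster was thus the one with the lower share in both injured libraries. Its cells numbered 16 in sham, 1 at 7 dpi and 4 at 28 dpi, and were 55.2% of the sham fibroblast side (35.7 to 73.6), 12.5% at 7 dpi (0.316 to 52.7) and 16.0% at 28 dpi (4.54 to 36.1). The 1 cell at 7 dpi had 7551 UMIs and was placed there by the clustering. It held at most 2 Pi16 UMIs, the total of the cluster in that library. The Apod-high cells numbered 13, 7 and 22, and the Rgs5-high cells 10, 11 and 33. With PLX5622 the Pi16-high cells numbered 3, 2 and 0, out of 6, 3 and 3 fibroblast cells. Whether these are fewer cells in the cord or fewer cells recovered cannot be told apart here.

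**Figure D3:**
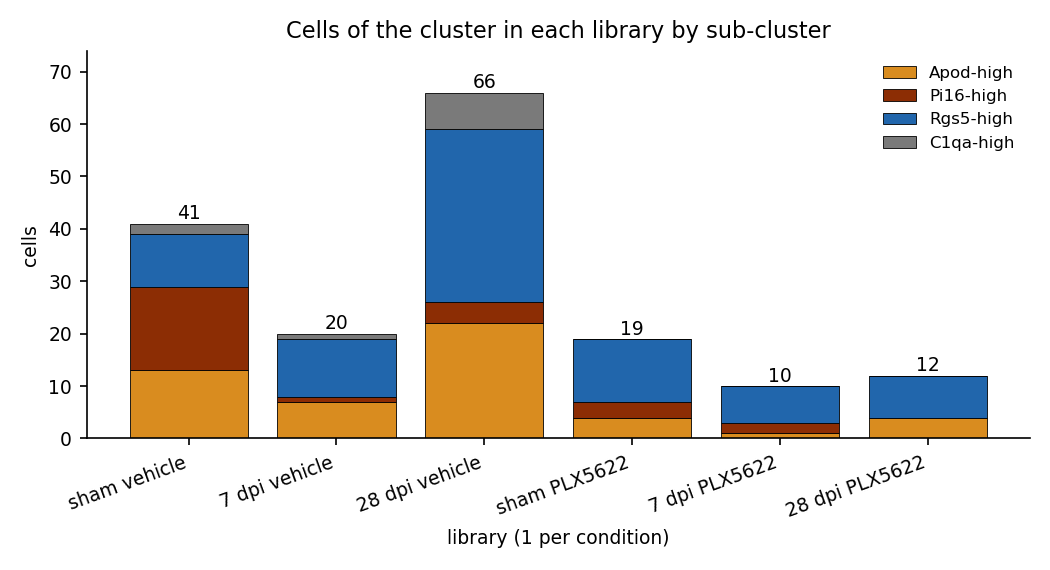
Number of cells of the cluster in each library (bar height, total above each bar), split by sub-cluster. The sham vehicle bar holds 16 Pi16-high cells and the injured vehicle bars hold 1 and 4, while Rgs5-high cells are 10 in sham and 33 at 28 dpi.

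Over the whole cluster, fibroblast genes were lower and pericyte genes higher in the injured vehicle libraries, in the direction of the mix. At 28 dpi against sham in vehicle, 10 of the 12 fibroblast genes were at least 2 times lower, where 17.7% of the 1926 genes with 30 or more UMIs were, and 8 of 10 measured pericyte genes were at least 2 times higher, where 7.37% of all genes were. At 7 dpi, 8 of 12 fibroblast genes were at least 2 times lower, against 18.8% of 1606 genes, and 6 of 8 pericyte genes at least 2 times higher, against 9.71%. With each cell counted alike, 2 of 10 pericyte genes at 28 dpi and 3 of 8 at 7 dpi were at least 2 times higher, and at 7 dpi 4 with TMM and 3 with DESeq2's factors. With TMM scaling the split over all genes at 7 dpi was 74 higher and 456 lower in place of 156 and 302, and with DESeq2's factors 51 and 598, and TMM moved the median gene from -0.08 to -0.46.

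Within the mural side most pericyte genes had the opposite sign. Of 9 pericyte genes measured in both at 28 dpi, 9 were above sham in the whole cluster, with a median of 1.62 log2 units, and 8 were below sham on the mural side, with a median of -0.96. At 7 dpi 8 of 8 were above sham in the whole cluster, with a median of 1.30, and 6 were below it on the mural side, with a median of -0.97. On the fibroblast side at 28 dpi the fibroblast genes were lower by less: 11 of the 12 were below sham, the median of the 12 was -0.53, against -1.51 in the whole cluster, and 2 rather than 10 were at least 2 times lower, where 17.3% of the 1402 genes measured on that side were. That contrast depended on the scaling: with TMM 3 and with DESeq2's factors 8 of the 12 were at least 2 times lower on the fibroblast side.

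**Figure D4:**
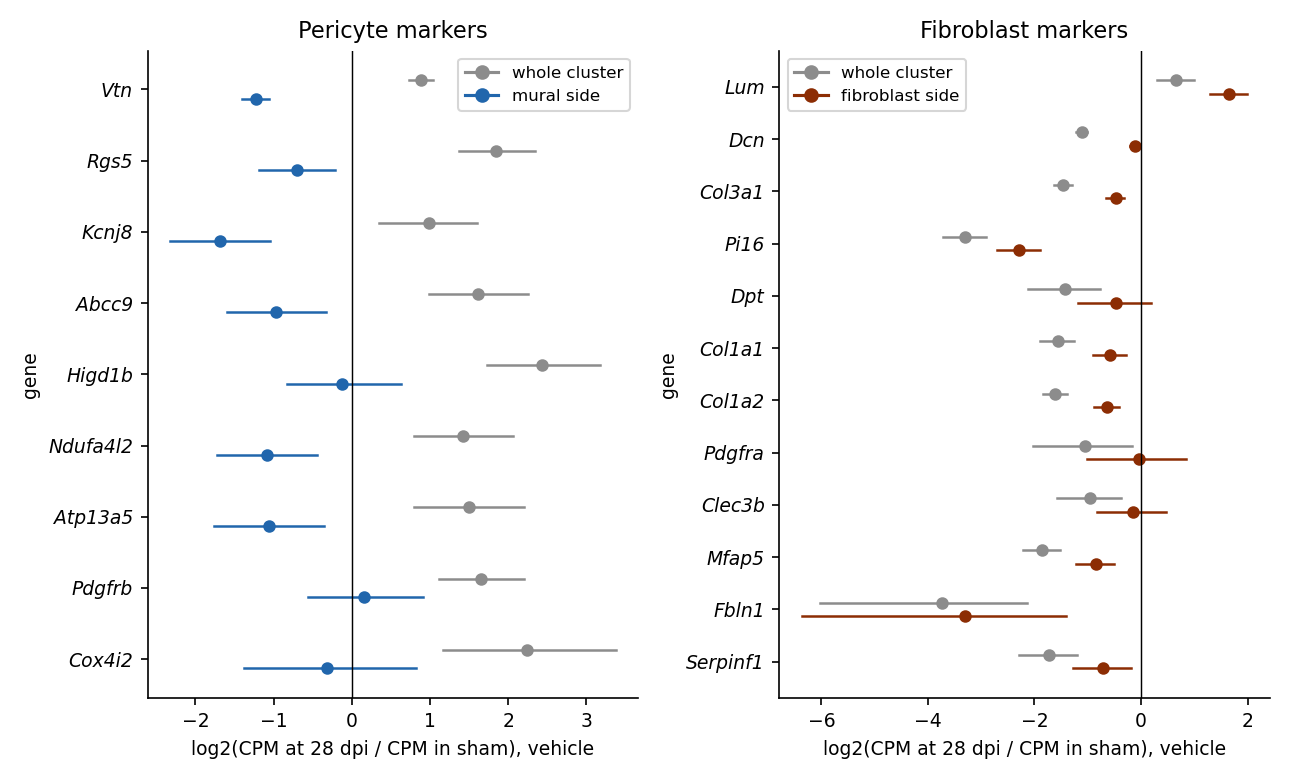
Log2 ratio of CPM at 28 dpi to CPM in sham (vehicle) for pericyte genes (left) and fibroblast genes (right), in the whole cluster (grey) and on their own side (colour); lines are 95% intervals of counting error. All 9 pericyte genes lie above 0 in the whole cluster and 8 of them below 0 on the mural side.

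Vtn, the most abundant pericyte gene, shows this at the level of counts. Over the whole cluster it had 3438 CPM in sham vehicle, 5450 at 7 dpi and 6345 at 28 dpi. On the mural side it had 25650 CPM in sham (556 UMIs in 12 cells), 11263 at 7 dpi (207 UMIs in 12 cells) and 10925 at 28 dpi (566 UMIs in 41 cells). The 12 sham cells were uneven, since the richest held 94 to 234 UMIs of the mural genes each and the others 5 to 15. The log2 ratio to sham on the mural side was -1.19 at 7 dpi (-1.42 to -0.95) and -1.23 at 28 dpi (-1.40 to -1.06). It stayed negative under each scaling tried, and was weakest, at -0.42 and -0.39, when each cell counted alike.

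Other pericyte genes on the mural side differed in size. Rgs5 had 2860 CPM in sham vehicle, 1034 at 7 dpi and 1756 at 28 dpi, which is -1.47 (-2.29 to -0.71) and -0.70 (-1.18 to -0.21) on the log2 scale. Kcnj8, the pore of the channel that links metabolism to vessel tone, had 2353, 1632 and 733 CPM, and its ratio at 28 dpi was -1.68 (-2.33 to -1.05). Abcc9, the partner of Kcnj8 in that channel, was at -0.91 and -0.96, and Atp13a5 at -1.04 and -1.06. These genes were lower in both injured libraries, which share 1 sham library of 12 mural cells, though Kcnj8 at 7 dpi had an interval of -1.23 to 0.15 and was at 0.13 when each cell counted alike.

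Pdgfrb and Higd1b did not follow them. Pdgfrb had 1061, 1469 and 1177 CPM on the mural side, with log2 ratios of 0.47 (-0.39 to 1.34) and 0.15 (-0.56 to 0.91). Higd1b had ratios of 0.55 and -0.12, and those intervals also held 0. In all, 4 of 8 measured pericyte genes were at least 2 times lower on the mural side at 7 dpi, where 11.6% of 146 genes were, and 4 of 9 at 28 dpi, where 10.7% of 308 genes were; none was at least 2 times higher. TMM scaling moved the split over all genes on the mural side at 28 dpi from 59 higher and 33 lower to 106 and 6, the median gene from 0.20 to 0.67, and left 6 of the 9 pericyte genes below 0, as did DESeq2's factors and leaving out doublets or the C1qa-high cells; under both scalings 1 of the 9, Kcnj8, was still at least 2 times lower. With each cell counted alike, 5 of 8 at 7 dpi and 7 of 9 at 28 dpi were below 0, but only Rgs5 at 7 dpi, and none at 28 dpi, was at least 2 times lower; without doublets 1 of 9 was at 28 dpi, and with totals free of ribosomal protein genes 2 of 8 were at 7 dpi. At 7 dpi DESeq2's factors gave 15 higher and 24 lower in place of 26 and 17. Within the Rgs5-high sub-cluster alone, without the cells that carry macrophage genes, 5 of 8 pericyte genes were at least 2 times lower at 7 dpi, where 13.5% of 111 genes were, and 3 of 9 at 28 dpi, where 5.17% of 174 genes were; TMM scaling gave 52 higher and 3 lower genes there in place of 31 and 9. Of the 9 pericyte genes at 28 dpi, 1 was at least 2 times lower with TMM and none with DESeq2's factors or each cell alike, and each cell alike left 1 of 8 at 7 dpi.

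In the PLX5622 libraries the pericyte genes differed gene by gene. Vtn on the mural side had 18647 CPM in sham, 19719 at 7 dpi and 14159 at 28 dpi, over 12, 7 and 8 cells. Rgs5 had 3948, 4108 and 3618 CPM, and Atp13a5 1120, 548 and 865 CPM, on 40, 8 and 11 UMIs. Both injured groups are under the 10 cells set for a comparison, and whether the vehicle and PLX5622 series differ was not tested.

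Smooth muscle genes rested on single cells. Acta2, smooth muscle actin, had 92.3 CPM on the mural side in sham vehicle (2 UMIs), 3482 at 7 dpi (64 UMIs in 2 of 12 cells) and 714 at 28 dpi (37 UMIs in 2 of 41 cells). In sham PLX5622 it had 147 UMIs in 2 of 12 cells, and at 28 dpi with PLX5622 none in 8. The high Acta2 levels were thus each those of 2 cells.

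**Figure D5:**
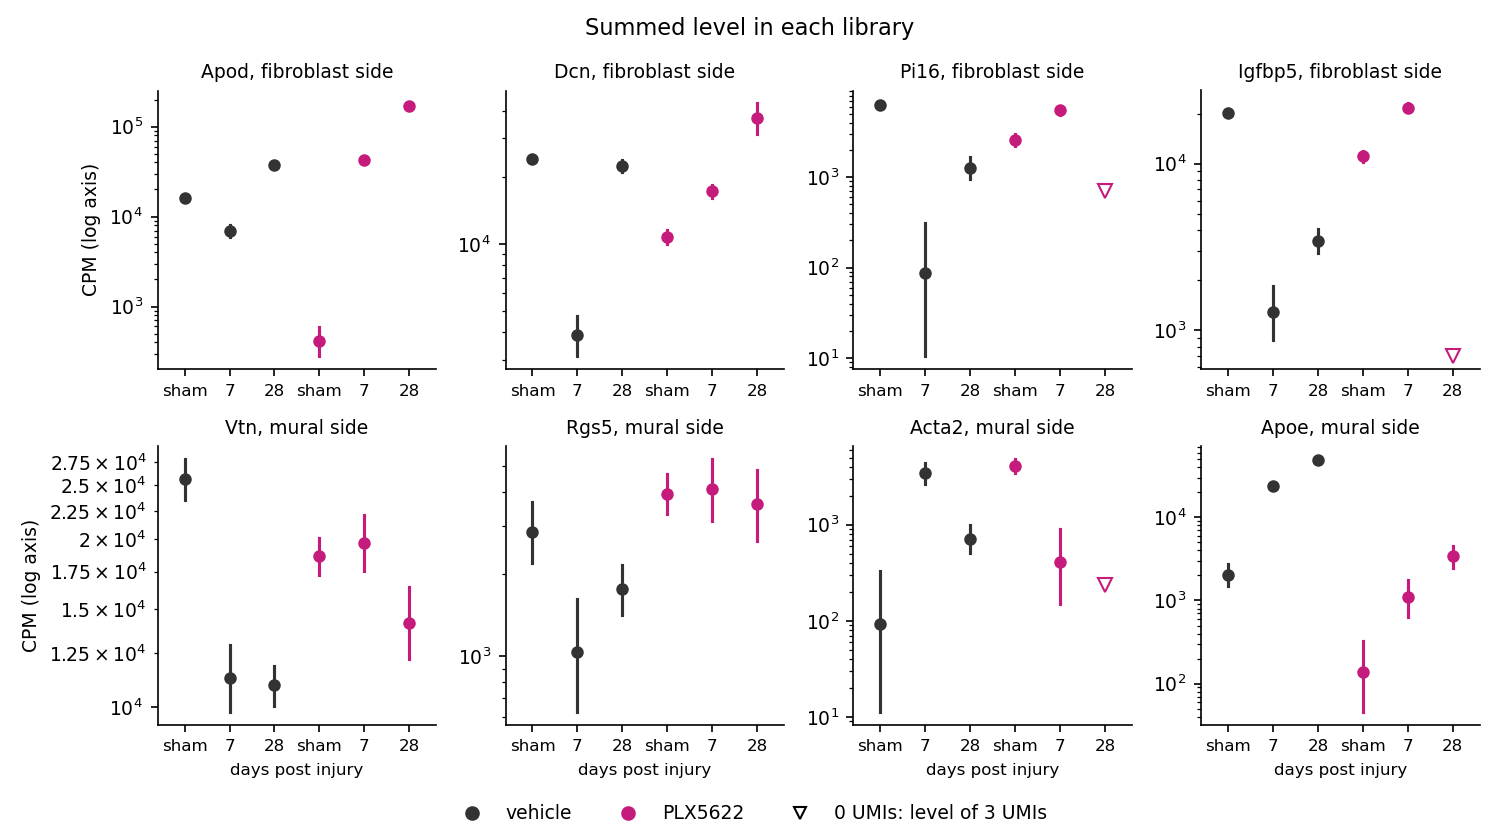
Summed level (CPM, log axis) of 4 genes on the fibroblast side and 4 on the mural side in each library, with 95% intervals of counting error; an open triangle marks a library with 0 UMIs, at the level of 3 UMIs. Vtn lies between 10925 and 11263 CPM in the injured vehicle libraries and at 25650 in sham vehicle.

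Among the fibroblasts of the vehicle libraries at 28 dpi, the leading genes of the Pi16-high kind were lower, and some of the Apod-high kind were higher. Pi16 had 6246 CPM in sham (17 of 29 cells with a UMI) and 1277 at 28 dpi (4 of 25 cells), a log2 ratio of -2.29 (-2.71 to -1.90). Igfbp5 had 20161 CPM in sham and 3429 at 28 dpi, a ratio of -2.56 (-2.80 to -2.32). Aspn stood at -3.11 and Sfrp4, with 300 UMIs in sham and 3 at 28 dpi, at -4.33 (-6.62 to -2.77). Each of these genes was a leader of the Pi16-high sub-cluster, which was 16 cells in sham and 4 at 28 dpi.

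Apod was higher at 28 dpi, with 37719 CPM against 16167 in sham, a log2 ratio of 1.22 (1.14 to 1.31). Lum had 2649 CPM against 845, a ratio of 1.65 (1.29 to 2.00), and Col15a1 1041 against 344, a ratio of 1.60 (1.02 to 2.16). Dcn was near level, with 22490 CPM against 24308, a ratio of -0.11 (-0.21 to -0.01). Gsn was at -0.03 (-0.18 to 0.11).

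Within the Apod-high sub-cluster, which had 13 sham and 22 injured cells, none of the 8 measured fibroblast genes was at least 2 times higher or lower, where 8.41 and 9.31% of 333 genes were, and their median was -0.02. TMM scaling gave 19 higher and 36 lower genes there in place of 28 and 31, and at 1000 UMIs a cell 17 of 92 genes were higher and 0 lower. With each cell counted alike the median of the 8 fibroblast genes was 0.48, 2 were below 0, and still none was past 2 times. Apod, higher on the fibroblast side as a whole, was lower within this sub-cluster, with 50091 CPM at 28 dpi against 68673 in sham, a log2 ratio of -0.46 (-0.54 to -0.37). Dcn was at -0.72 (-0.84 to -0.60) and Lum at 0.56 (0.08 to 1.05). Of the fibroblast cells 21 were Apod-high at 28 dpi and 13 in sham. Other genes also differed there. Igf1 was at -1.68 and the lysosomal protease Ctsd at 2.63, but Ctsd was also higher at 28 dpi in B cells, as given below.

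The gene groups on the fibroblast side differed in direction, and each is given against the 5.63% of genes that were at least 2 times higher and 17.3% at least 2 times lower, with a median of -0.18. Pi16-high cells supplied 162076 of the 209562 UMIs of this side in sham and 12419 of 42286 at 28 dpi. All group ratios of this side, here and in the next paragraph, hold that difference in mix. Its part in them was not tested, and no group is given within a single sub-cluster. Fibrillar collagens and their partners had 1 of 11 higher and 3 lower, median -0.58, with Col3a1 at -0.48 (-0.65 to -0.31), Col1a1 at -0.58 (-0.91 to -0.27) and Col5a1, which seeds fibrils, at -1.26 (-2.62 to -0.15). Genes of collagen processing and crosslinking had none of 12 higher and 5 lower, median -0.70. Basement membrane genes had 4 of 10 higher and none lower, median 0.94, among them Col18a1, with 355 CPM against 90.7, at 1.97 (0.89 to 3.02) and the collagen IV chain Col4a1 at 1.27 (0.37 to 2.12). Those ratios rest on 15 and 18 UMIs at 28 dpi. Genes of elastic fibres and matrix glycoproteins had 4 of 20 higher and 6 lower, median -0.64: elastin (Eln) had 1 UMI against 151 in sham, fibronectin (Fn1) was at -1.01 (-1.42 to -0.62), and Ltbp4, which binds latent TGF-beta, at 1.26 (0.22 to 2.23).

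Complement genes had none of 7 higher and 4 lower, median -1.35. C3, the central component, had 43 UMIs in sham and none at 28 dpi. All 3 measured genes of Wnt and BMP control, Sfrp4, Gas1 and Dkk3, were at least 2 times lower. Of the chemokine and cytokine genes 4 of 5 were higher and none lower. Ccl11, an attractant of eosinophils, had 402 CPM in 10 of 25 cells against 186, and Ccl7, Il33 and Cxcl16 stood at 1.54, 1.22 and 1.57. That depended on the scaling: with TMM Ccl11 and Il33 were less than 2 times higher, and with DESeq2's factors Ccl7 and Cxcl16 were too. The 16 Ccl2 UMIs at 28 dpi came from 1 cell. Transcription factors of stromal cells had none of 11 higher and 4 lower, median -0.71, among them Prrx1, a regulator of mesenchymal cells, at -1.55 (-2.64 to -0.63), and Klf4 at -1.05 (-1.81 to -0.37). Genes of the insulin-like growth factor system had none of 7 higher and 3 lower, median -0.92. Universal fibroblast genes, a list that shares Pi16 and Dpt with the markers, had 1 of 11 higher, Col15a1, and 5 lower, median -0.99. Under TMM scaling the split over all genes was 39 higher and 388 lower in place of 79 and 243, with a median of -0.46, and with DESeq2's factors 15 and 559. Both scalings lower every ratio on this side alike. Under them no gene group has more genes counted higher, or fewer counted lower, than given.

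The 8 fibroblast cells of the 7 dpi vehicle library were too few for a comparison. Their levels were 3867 CPM for Dcn, 3953 for Col1a1, 6918 for Apod and 85.9 for Pi16, the last on 2 UMIs. Most of their 23274 UMIs came from cells of 8058 and 7551 UMIs. The second of these held 309 UMIs of the fibroblast genes, and the other cells 13 to 82. Over the whole cluster, leaving out cells with 3 or more myeloid UMIs moved the log2 ratios to sham. Col1a1 went from -0.47 to -3.22, Dcn from -3.32 to -3.06 and Pi16 from -6.88 to -6.16. Genes of activated fibroblasts were carried there by a single cell: all 37 Tnc UMIs and all 44 Postn UMIs each came from 1 cell. All 28 UMIs of Aldh1a2, a gene of the leptomeningeal list, also came from 1 cell. Of the 7 Apod-high cells of this library 1 was called a doublet. Tenascin C (Tnc) and periostin (Postn) are matrix proteins known from wounds, and Aldh1a2 makes retinoic acid.

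In PLX5622 the fibroblast side had 6, 3 and 3 cells, so only the whole cluster was compared. Among genes with at least 5 UMIs in each library Apod had the highest ratio at both times, with 319 CPM in sham, 32871 at 7 dpi and 38133 at 28 dpi, log2 ratios of 6.69 and 6.90, where 6.65% of 902 and 7.8% of 641 genes were at least 2 times higher and 8.65 and 32% at least 2 times lower. The low value was that of sham, where the fibroblast side had 29 Apod UMIs in 3 of 6 cells. Cells with few or no marker UMIs weigh in these sums. In sham the 4 Apod-high cells supplied 22116 of the 106563 UMIs of the cluster. At 28 dpi 1 cell with 0 UMIs of both the fibroblast and the mural lists supplied 4206 of 21215. Fibroblast genes were at least 2 times higher in 5 of 11 at 7 dpi and lower in 8 of 10 at 28 dpi, and pericyte genes at least 2 times higher in 6 of 11 at 28 dpi. None of the 11 pericyte genes was with TMM or DESeq2's factors and 2 were with each cell alike, when 3 of the 10 fibroblast genes were at least 2 times lower. Lum had 0 UMIs in sham and 74 and 60 after injury, log2 ratios of at least 5.37 and 6.65. TMM scaling gave 18 higher and 330 lower at 28 dpi in place of 50 and 205, with the median at -1.04 in place of -0.48, and DESeq2's factors 12 and 377.

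Apoe had the highest ratio over the whole cluster in vehicle among genes with at least 5 UMIs in each library. In lymphocytes, too, Apoe was higher in the injured libraries. Apoe is a lipid carrier made in the cord by astrocytes, microglia and macrophages. On the mural side it had 2030 CPM in sham, 23777 at 7 dpi and 48235 at 28 dpi, and on the fibroblast side 725, 4125 and 9696. Most mural-side Apoe in injured libraries lay outside the Rgs5-high cells, which held 68 of 437 UMIs at 7 dpi and 231 of 2499 at 28 dpi. Within the Rgs5-high cells Apoe had 730, 4057 and 7626 CPM. In the B cell cluster, where little is made, it had 2525, 55850 and 51753 CPM, and in the T cell cluster 817, 46392 and 39060. Each injured level of the cluster's sides thus lay below that of B cells of the same library. The mural level at 28 dpi, though, lay above that of T cells. No difference in Apoe was read as one of the cluster's own cells, and where this RNA came from was not tested.

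C1qa, a complement gene of microglia and macrophages, behaved alike, with 186, 504 and 1732 CPM in the cluster and 505, 3156 and 4385 in B cells. Ctsd had 506, 1296 and 3975 CPM in the cluster and 423, 10871 and 9748 in B cells. The genes that define the cluster did not: in the B and T cells of the vehicle libraries Dcn, Vtn, Apod and Rgs5 were at 12.8 CPM or less. At 28 dpi 41 of 41 mural cells had an Apoe UMI at a median of 956 UMIs per cell, and 99.4% of 329 B cells did at a median of 932.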

How the data were processed

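Single-cell suspensions of 6 groups were made into 10x libraries; the submitters' processing notes name Cell Ranger, Seurat and mm10, with no versions of these tools. The authors deposited 1 table of UMI counts (16003 genes, 21016 cells), whose values were not normalized, with the cluster of each cell, and a count matrix per library. In the deposited table genes seen in very few cells of a library are at 0, which removed 800 to 2142 UMIs a library. The methods state a limit of 3000 genes per cell, yet 19 cells of the cluster exceed it; they were kept.

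Counts were summed per library, scaled by total UMIs and compared as ratios with an exact conditional binomial interval; shares have Clopper-Pearson and CPM exact Poisson intervals (95%). A gene was measured where the pair of libraries summed to 30 UMIs or more, groups of at least 10 cells were compared, and 2 times marked a fold. A gene at 0 was set to 3 UMIs. Named genes were list members, the 20 leading genes, and the 10 highest and lowest ratios with at least 5 UMIs in each library. Sub-clusters came from Leiden clustering (scanpy 1.11.5, 2000 genes, 20 components, 15 neighbours, resolution 0.5); doublets were called with Scrublet, marking 1256 cells in all and 9 here, and were kept. edgeR 4.0.16 and DESeq2 1.42.0 gave scaling factors only. Ratios were tested on simulated data. The members and lists were chosen with earlier results of these data known. Sub-clusters and their comparisons, and leaving out the C1qa-high cells, were added after seeing the data. Alternatives are in the closing section. Results for a few genes are not reported here.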

Additional observations from a re-analysis of the deposited data

Results flagged for a closer look

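The fibroblast list over the mural lists, as a log2 ratio in the whole cluster, moved in opposite directions on the 2 diets between sham and 7 dpi. In vehicle it went from 3.35 to -0.11, a difference of -3.46. With PLX5622 it went from 0.39 to 1.98, a difference of 1.58, on 19 and 10 cells. The difference between the diets was not tested, since each value is 1 library. The PLX5622 value at 7 dpi rests on 3 fibroblast cells with a median of 14774 UMIs, against 2974 in its 7 mural cells, and it was -0.79 when each cell counted alike.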

How the results depend on the processing

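Of 112 main values under alternatives 72 kept within the limits set and 40 moved; of 3496 values of extreme genes and gene groups 500 moved and 18 more changed sign, counting groups only where past 2 times. Of 199 marker gene ratios, 32 changed sign with each cell alike, 7 of them past 2 times, and at most 15 under any other alternative tried on them. The fibroblast over mural ratio of 1.82 was 0.114 with each cell alike, 0.731 at 1000 UMIs a cell, 1.92 both in cells of 500 genes and with 5 markers, and 1.87 without C1qa-high cells; at 7 dpi PLX5622 it was -0.79 and -0.0601 under the first and the second of these. Without microglia and MDM the vehicle shares were 4.38, 0.884 and 2.58%, and over cells other than immune and erythroid ones 6.98, 1.93 and 4.81%, then 4.31 and 3.63% for injured PLX5622. Counts past 2 times, in the order vehicle 7 and 28 dpi, PLX5622 7 and 28 dpi, fibroblast side, mural side 7 and 28 dpi, were 458, 482, 138, 255, 322, 43 and 92 as reported. At 1000 UMIs a cell they were 59, 61, 14, 29, 34, 14 and 28. With 100 UMIs together they were 103, 128, 27, 78, 61, 3 and 21, and with no minimum 2881, 3357, 2184, 2321, 2633, 1198 and 2230. Each cell alike gave 234 for PLX5622 7 dpi, and DESeq2 factors 389 for PLX5622 28 dpi and 574 for the fibroblast side. The mural side at 28 dpi had 39 without doublets, 46 with under 3 myeloid UMIs and 45 without C1qa-high cells. Fewer genes or cells enter the thinned and filtered counts; the cause of the other moves was not tested.

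Besides that ratio at 7 dpi PLX5622, these log2 ratios made up the 18 sign changes. Without doublets at 7 dpi in vehicle Rbp4 was -0.22 and the retinoid list -1.09, and Dbi in Apod-high cells -0.825. At 100 UMIs together the contractile list at 28 dpi was -0.12. Each cell alike gave Tagln 1.01 at 7 dpi PLX5622. At 1000 UMIs a cell Rpl7 and the elastic fibre list at 28 dpi PLX5622 were both 0.42, Rsrp1 0.0704 and Mylk -0.0589 on the mural side at 7 dpi, and Glul 0.0825 and Nfia -0.14 in Apod-high cells. With no minimum the elastic fibre list was 0.33 and the retinoid list of the fibroblast side 0.50. With under 3 myeloid UMIs H3f3b was 0.26 at 7 dpi and 0.25 at 28 dpi on the mural side, and without C1qa-high cells H3f3b was 0.29 at 28 dpi. No paired analysis was possible because each condition is 1 library and no test was run, and no replicate could be left out. Cell number was low for the 7 dpi vehicle fibroblasts (8 cells) and the injured PLX5622 sides (3 to 8 cells).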
